A study of Mus musculus with 7 samples.

Results

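Transcripts typical of macrophages were examined in sorted cancer-associated fibroblasts (CAFs) of mouse pancreatic tumors. The panel of 10 genes was chosen by name: Csf1r, C1qa, C1qb, C1qc, Lyz2, Adgre1, Fcer1g, Tyrobp, Cd68 and Mrc1. Of these 10 genes, 9 were analysed among 12771 genes, and Adgre1 was not analysed here. The panel was selected on earlier results of the same comparison, in which Csf1r and C1qa were called higher, so the differences between groups are given for its members as a description, without a test.

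Macrophages depend on the CSF1 receptor, a tyrosine kinase encoded by Csf1r that binds the ligands CSF1 and IL-34. They are also the main producers of C1q, the recognition part of the first complement component, whose 3 chains are encoded by C1qa, C1qb and C1qc and assemble into 1 molecule. Fcer1g and Tyrobp encode small signaling adaptors that pair with activating receptors at the cell surface, Lyz2 encodes a secreted lysozyme, Cd68 a lysosomal membrane glycoprotein, and Mrc1 the mannose receptor CD206. In the pancreas, such cells lie between the fibroblasts of the stroma, and CAFs are themselves a source of CSF1 and of several chemokines that draw monocytes in.

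The 7 libraries came from male C57BL/6 mice, 8 weeks old at injection, that carried orthotopic pancreatic tumors grown from KPC cells, a mouse pancreatic cancer cell line. In the shControl group (3 libraries, numbered 1, 2 and 4) the KPC cells carried a non-targeting shRNA, and in the shBrca2 group (4 libraries, numbered 1 to 4) an shRNA against Brca2. Tumors were taken 2 to 3 weeks after injection, and live PDPN+ cells that lacked CD45, CD31 and EpCAM were sorted, so the gate itself selected against leukocytes. The shRNA was in the cancer cells and not in the sorted fibroblasts, whose Brca2 counts therefore check no label. Each library is a bulk 3′ count profile from 1 mouse, in which fewer cells of a type and less RNA per cell cannot be told apart. Total counts ran from 1898679 (shBrca2 3) to 5990579 (shBrca2 2), and every gene in the table had at least 6 counts in some library. Fibroblast genes were abundant throughout: Col1a1, encoding a chain of type I collagen, was at 8269 to 16333 normalized counts and Pdpn, the gate antigen, at 457 to 670. Ptprc and Epcam, which encode the gate antigens CD45 and EpCAM, were not analysed here.

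The macrophage panel took up a small part of each library, and most of its counts came from Csf1r, Lyz2 and Cd68. The 9 genes together held 78.7 to 88.6 CPM (counts scaled to the library total) in the shControl libraries and 127 to 137 in the shBrca2 libraries. Csf1r alone accounted for 31.2 to 47.6% of these counts in shControl and for 52.9 to 66.4% in shBrca2. Without Csf1r, the remaining 8 genes summed to 210, 164 and 191 normalized counts in shControl and to 201, 208, 140 and 187 in shBrca2, and the groups overlapped. Normalized counts are counts divided by a size factor per library. A gene was called where the adjusted p over all genes was under 0.1, the log2 fold change passed 0.5 in either direction and the mean normalized count was over 5. By this rule 2 of the 9 genes were called higher in shBrca2 (Csf1r and C1qa) and none lower, against 3.77% of all tested genes called higher and 5.27% called lower. Of all calls, 41.7% were thus in the higher direction, a share that became 58.5% when libraries were scaled to their total counts, which moved the median log2 fold change of all genes from 0.01 to 0.12. The median log2 fold change of the 9 genes was 0.57, with 6 above 0, against the 0.01 of all genes. Only for Csf1r did every shBrca2 library lie above every shControl library, which held for 7.79% of all tested genes, and no member had its groups apart in the other direction, which held for 9.30%. The members were selected on this comparison, so nothing is read from these counts.

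**Figure D1:**
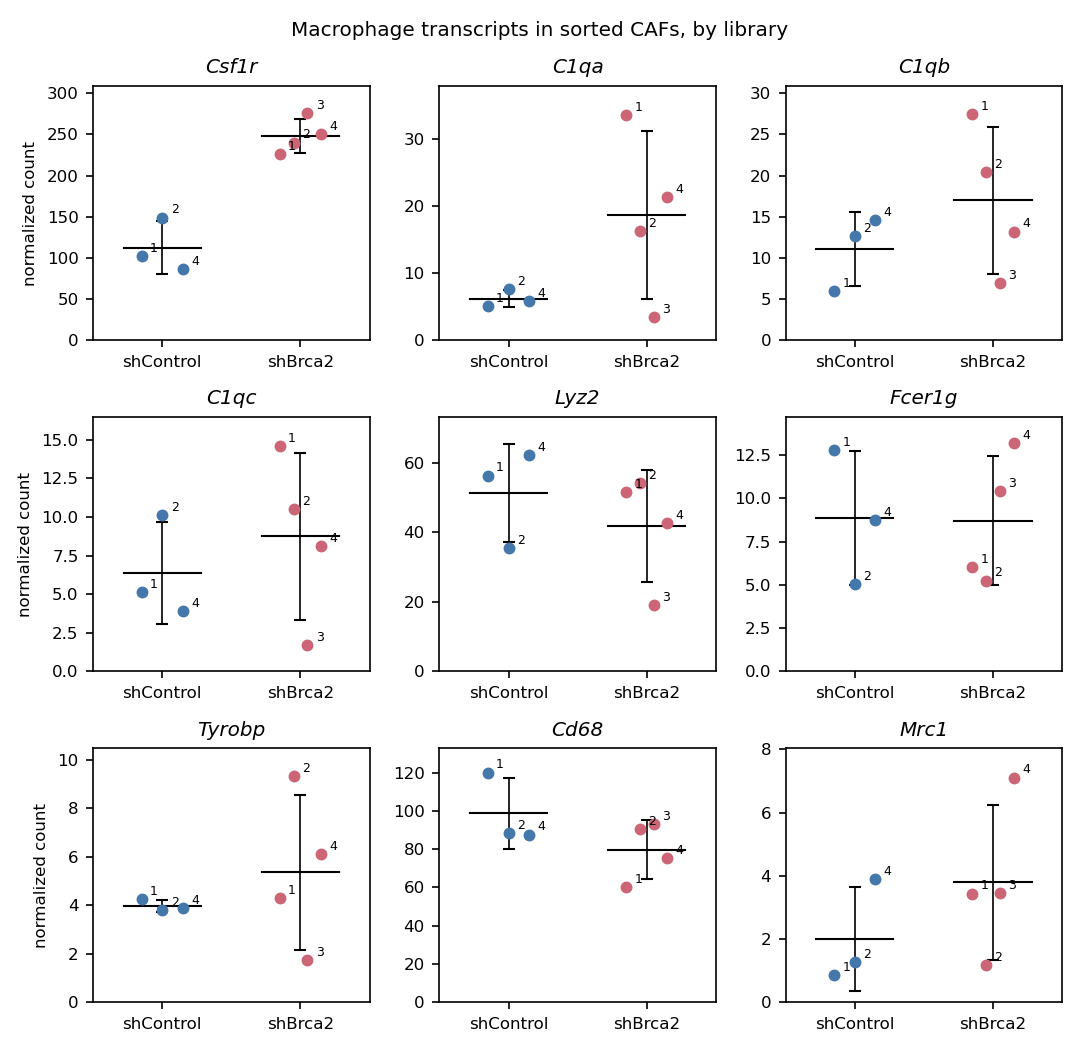
Normalized counts of the 9 macrophage transcripts in each library, in shControl (blue) and shBrca2 (red). Numbers give the replicate, bars the mean and SD (n = 3 and n = 4). Csf1r is at 86.6 to 149 in shControl and at 226 to 276 in shBrca2, while the groups overlap for the other 8 genes.

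Csf1r was the member whose groups did not overlap. It was at 102, 149 and 86.6 normalized counts in shControl 1, 2 and 4 and at 226, 240, 276 and 250 in shBrca2 1, 2, 3 and 4. All 4 shBrca2 libraries were above the highest shControl library, and the distance between the groups was larger than the SD of either. The group means were 113 ± 32.7 (SD, n = 3) and 248 ± 21.1 (SD, n = 4), a ratio of 2.21, and the log2 fold change was 1.15 ± 0.22 (SE). The underlying counts were 89 to 119 in shControl and 160 to 412 in shBrca2. The lowest count, 89 in shControl 4, has an exact 95% Poisson interval of 69.5 to 107 on the normalized scale, and the shallowest library, shBrca2 3, one of 235 to 323, both covering counting error only. These were the lowest and the highest library. The closest libraries of the groups, shControl 2 and shBrca2 1, had intervals of 124 to 179 and 200 to 255. Over 13 other fits the log2 fold change ran from 0.99 to 1.39.

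Csf1r lies on chromosome 18 from base 61105572 to 61131139 (GRCm38, the build named mm10 in the submitters' processing notes). Its neighbor upstream, Pdgfrb, which encodes a receptor of pericytes and fibroblasts, ends 20504 bases before it. Pdgfrb was at 999, 1398 and 1104 normalized counts in shControl and at 1231, 893, 1130 and 1212 in shBrca2, with a log2 fold change of -0.06 ± 0.18. The adjacent gene of the same receptor family thus had overlapping groups. RefSeq also places Mir6983 and Gm52352 within the span of Csf1r, and the strand setting of the counting is not given in the sources used here.

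Both ligands of the receptor were lower where the receptor was higher. Csf1, which encodes the main macrophage growth factor, was at 1763, 2292 and 1837 normalized counts in shControl and at 933, 1339, 826 and 1035 in shBrca2. Every shBrca2 library was below every shControl library, and Csf1 fell by 0.92 on the log2 scale (SE 0.20, DESeq2 adjusted p = 2.3e-04). Il34, encoding the second ligand, was at 94.8, 84.8 and 125 in shControl and at 55.9, 58.3, 81.2 and 60.0 in shBrca2. These groups did not overlap either, although shBrca2 3 was far above the other shBrca2 libraries, and Il34 fell by 0.70 on the log2 scale (DESeq2 adjusted p = 0.058). The Csf1 call held without any 1 library, whereas the Il34 call was lost without shControl 1, shControl 4, shBrca2 1, shBrca2 2 or shBrca2 4, with adjusted p up to 0.46. It was lost with total count scaling too.

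Among the 17 genes of the ligand and lineage list that were analysed, of 21 listed, 1 rose and 5 fell. Csf3, encoding the granulocyte growth factor G-CSF, rose by 1.61 on the log2 scale (by DESeq2, adjusted p = 3.5e-04). Besides the ligands, Csf2rb, the common beta subunit of the GM-CSF, IL-3 and IL-5 receptors, fell by 1.86, Nr1h3, encoding the sterol-sensing nuclear receptor LXR alpha, by 1.32 and Cebpa, a transcription factor of myeloid and fat cells, by 0.86 on the log2 scale. The Cebpa call was lost without shControl 1, shControl 4, shBrca2 1 or shBrca2 4. Spi1, which encodes PU.1, the transcription factor that macrophages require, had 1, 0 and 5 counts in shControl and 2, 6, 0 and 1 in shBrca2. Libraries of both groups were therefore at or near 0 for Spi1 while Csf1r had 89 counts or more in each. The median log2 fold change of this list was -0.17.

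**Figure D2:**
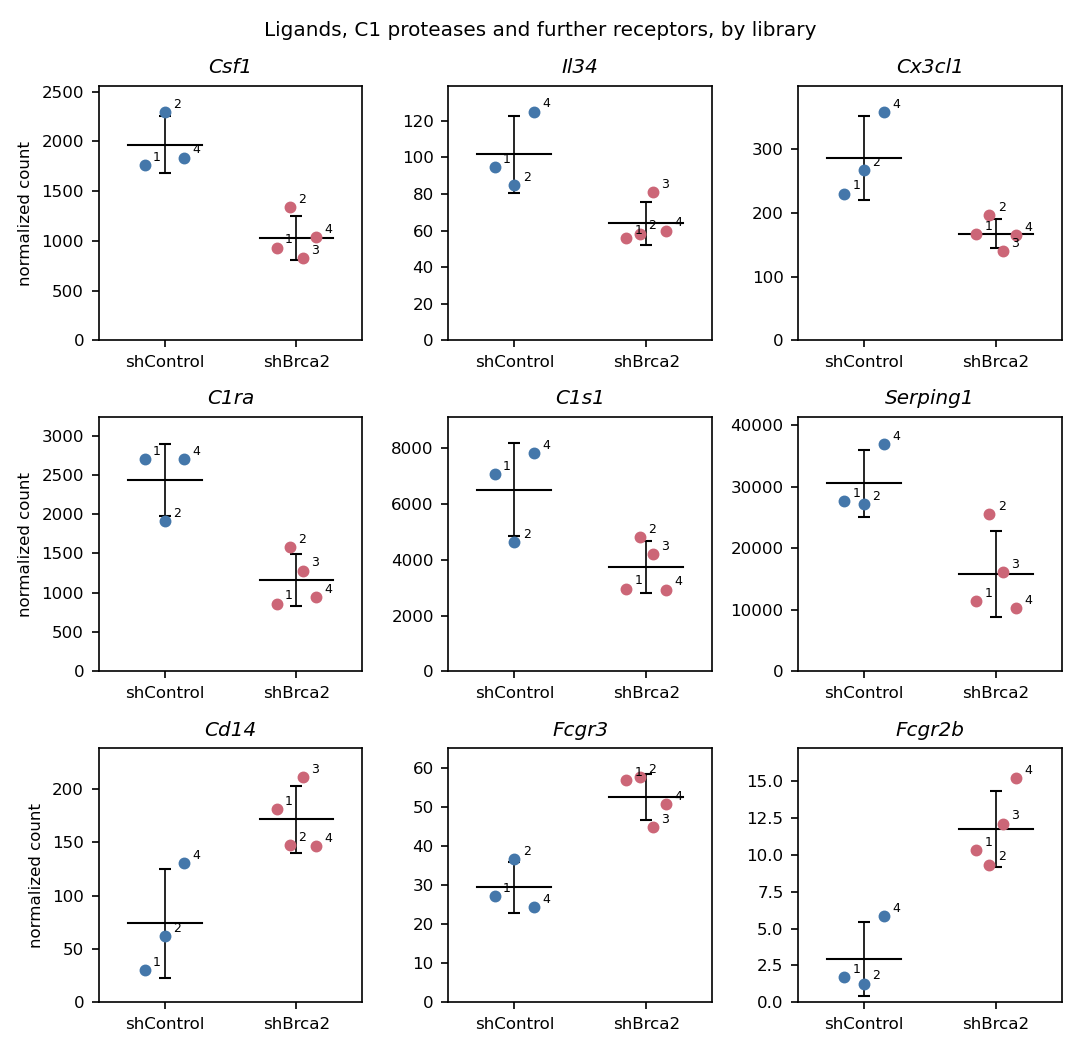
Normalized counts of the ligands Csf1 and Il34, the chemokine Cx3cl1, the C1 proteases and their inhibitor, and 3 cell surface receptors, by library, with mean and SD (n = 3 and n = 4). Ligands, proteases and inhibitor are lower in shBrca2 and Cd14, Fcgr3 and Fcgr2b higher; the groups overlap for C1s1 alone among the 9.

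The 3 C1q chains varied among the shBrca2 libraries. C1qa was at 5.13, 7.59 and 5.84 normalized counts in shControl and at 33.6, 16.3, 3.45 and 21.3 in shBrca2, so that 3 shBrca2 libraries were above all shControl libraries and shBrca2 3 was below them. Its group means were 6.18 ± 1.27 (SD, n = 3) and 18.7 ± 12.5 (SD, n = 4), and the log2 fold change was 1.65 ± 0.63 (SE). These values rest on 6 counts in each shControl library and on 39, 28, 2 and 21 in shBrca2. The C1qa call was lost in 6 of 7 fits that left out 1 library and was kept without shBrca2 3.

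C1qb was at 5.98, 12.7 and 14.6 normalized counts in shControl and at 27.5, 20.4, 6.91 and 13.2 in shBrca2 (log2 fold change 0.69 ± 0.54). C1qc was at 5.13, 10.1 and 3.89 and at 14.6, 10.5, 1.73 and 8.13 (0.57 ± 0.68). For both chains shBrca2 1 and shBrca2 2 were the highest libraries, and the groups overlapped. Summed over the chains, the counts were 19, 24 and 25 in shControl and 88, 81, 7 and 42 in shBrca2, or 4.61 to 8.40 and 3.69 to 23.9 CPM. The library with the lowest summed C1q level, shBrca2 3, had the highest Csf1r level, and its ratio of Csf1r to C1q counts was 22.9, against 2.99 to 6.26 in the other 6 libraries. The same library was the shallowest, and the part of depth in its low C1q level was not tested. In shBrca2 3 the 2 counts of C1qa have an exact 95% Poisson interval of 0.418 to 12.5 on the normalized scale, which lies below that of shBrca2 1 (23.9 to 45.9) and meets those of all shControl libraries.

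**Figure D3:**
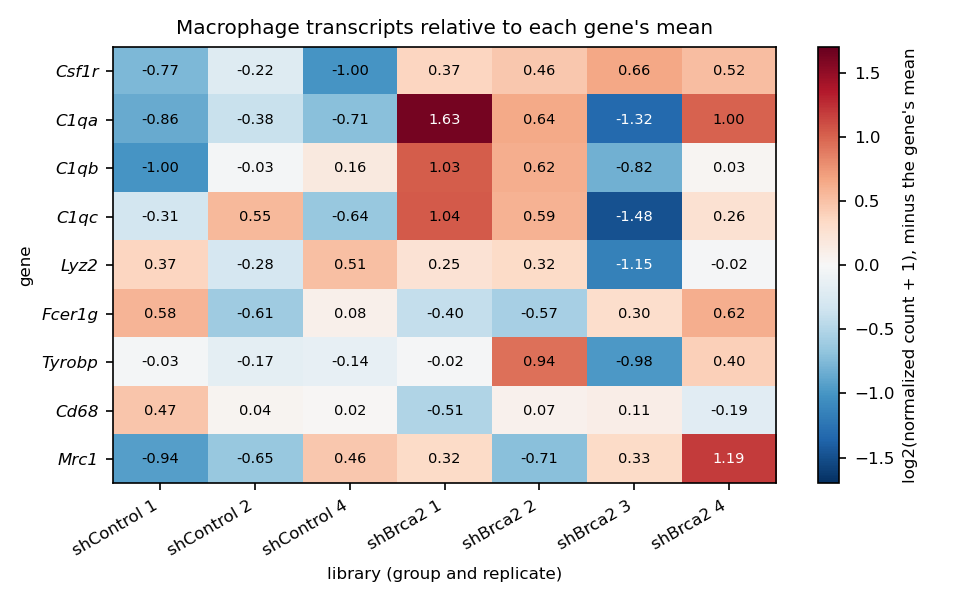
Each macrophage transcript in each library relative to its own mean over the 7 libraries, as log2(normalized count + 1); red is above and blue below that mean. In shBrca2 1 the 3 C1q chains are at 1.03 to 1.63 and in shBrca2 3 at -0.82 to -1.48, while Csf1r is at 0.37 to 0.66 in all 4 shBrca2 libraries.

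The C1q genes form a cluster on chromosome 4. C1qb (bases 136880126 to 136886200), C1qc (136889801 to 136892936) and C1qa (136895916 to 136898844) lie within 18719 bases. The 250 bases before the RefSeq start of C1qb and C1qc are shown because both neighbors were highest in shBrca2 1 and shBrca2 2. Those of Lyz2 are shown because it was highest in shControl 4 and shControl 1, although Lyz2 and C1qc were both lowest in shBrca2 3. They are given 5′ to 3′ on the coding strand, which is the minus strand for all 3 genes, from RefSeq on GRCm38.p6: C1qb at chr4:136886201-136886450, C1qc at chr4:136892915-136893164, of which 22 bases lie inside the annotated span of the gene, and Lyz2 at chr10:117282273-117282522. Capitals mark AGGAAGT or its reverse complement ACTTCCT, a core that ETS factors such as PU.1 can bind.
C1qb: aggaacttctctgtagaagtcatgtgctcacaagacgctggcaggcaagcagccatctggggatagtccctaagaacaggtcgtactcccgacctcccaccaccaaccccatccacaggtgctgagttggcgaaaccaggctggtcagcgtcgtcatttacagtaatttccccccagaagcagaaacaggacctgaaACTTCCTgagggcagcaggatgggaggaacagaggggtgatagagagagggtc
C1qc: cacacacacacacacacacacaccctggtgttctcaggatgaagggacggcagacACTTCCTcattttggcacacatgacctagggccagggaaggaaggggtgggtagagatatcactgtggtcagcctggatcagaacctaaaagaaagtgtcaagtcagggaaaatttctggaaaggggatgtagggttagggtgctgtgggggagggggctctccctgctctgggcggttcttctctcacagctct
Lyz2: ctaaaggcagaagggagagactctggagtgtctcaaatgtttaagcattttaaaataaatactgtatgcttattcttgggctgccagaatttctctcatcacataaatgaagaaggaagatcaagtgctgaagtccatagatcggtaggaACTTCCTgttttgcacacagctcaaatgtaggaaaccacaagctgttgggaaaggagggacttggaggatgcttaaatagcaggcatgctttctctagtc
The motif was searched on both strands in the promoters of the 6 members with a matching entry, C1qb, C1qc, Lyz2, Mrc1, Cd68 and Fcer1g. It was found in 4 of them, starting at base -53 of C1qb, -195 of C1qc, -100 of Lyz2 and -211 of Mrc1, counted from the start. Of all 32851 promoters of this length, 7.69% hold it. C1qb, C1qc and Lyz2 thus share the letters while Lyz2 was highest in other libraries than the 2 chains, and a match is a description of the sequence only.

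The proteases that C1q carries were abundant in these cells and lower in shBrca2. C1ra, encoding C1r, was at 2703, 1910 and 2698 normalized counts in shControl and at 863, 1578, 1282 and 941 in shBrca2, without overlap, and fell by 1.06 on the log2 scale (SE 0.24, DESeq2 adjusted p = 4.4e-04). C1s1, encoding C1s, was at 7078, 4633 and 7829 and at 2970, 4830, 4223 and 2937, and fell by 0.80 (adjusted p = 0.019, overlapping at shControl 2 and shBrca2 2). Serping1, the inhibitor of both proteases, fell by 0.95 (adjusted p = 0.020). The calls of C1s1 and Serping1 were lost without shControl 4, and that of C1s1 also without shBrca2 1 or shBrca2 4.

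Of the 13 genes analysed from the list of C1 partners and C1q receptors, 7 fell and none rose, with a median log2 fold change of -0.76. Further along the classical pathway, C4b fell by 1.79, C3 by 1.41 and C2 by 0.91 on the log2 scale (DESeq2 adjusted p = 1.6e-08, 7.3e-05 and 0.0036). Lrp1, a clearance receptor that binds C1q, fell by 0.76. Calr, encoding the chaperone calreticulin, which can hold C1q at a cell surface, had a log2 fold change of -0.27 and overlapping groups. The log2 fold changes of the C1q chains, 0.57 to 1.65, were thus on the other side of 0 from these 7 genes in the same libraries. Of the chains only C1qa was called, and in shBrca2 3 their summed normalized level (12.1) was below every shControl library.

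The adaptors were scarce. Fcer1g, the common gamma chain of Fc receptors, was at 12.8, 5.06 and 8.76 normalized counts in shControl and at 6.02, 5.25, 10.4 and 13.2 in shBrca2, with groups that covered the same range. Fcer1g lies on chromosome 1 from base 171229572 to 171234349 and Tyrobp on chromosome 7 from 30413782 to 30417582. The log2 fold change of Fcer1g was -0.11 ± 0.60, and the sign changed with total count scaling and without shControl 1, shBrca2 1 or shBrca2 2. Tyrobp, encoding DAP12, had 5, 3 and 4 counts in shControl and 5, 16, 1 and 6 in shBrca2. Its shControl libraries were close together at 3.80 to 4.27 normalized counts, the shBrca2 libraries lay on both sides of them at 1.73 to 9.33, and the mean stayed under 5. With 4 to 15 counts per library for Fcer1g and 1 to 16 for Tyrobp, both had too few for their library order to be set against that of Csf1r.

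Receptors that signal through these adaptors were also measured. Fcgr3, an activating IgG receptor that uses the gamma chain, was at 27.3, 36.7 and 24.3 normalized counts in shControl and at 56.8, 57.7, 44.9 and 50.8 in shBrca2. The groups did not overlap, and Fcgr3 rose by 0.87 ± 0.29 on the log2 scale (by DESeq2, adjusted p = 0.044), a call lost without shControl 1, shControl 4, shBrca2 1, shBrca2 2 or shBrca2 4. Trem2, a lipid-sensing receptor that uses DAP12, was at 41.9, 51.9 and 196 in shControl and at 237, 283, 180 and 309 in shBrca2. Its log2 fold change was 1.39 ± 0.61 with an adjusted p of 0.20 (DESeq2), which misses the threshold, and shControl 4 lay inside the shBrca2 range, whereas edgeR called Trem2 higher. The kinases Syk and Lyn, which act below the adaptors, had 1 to 22 and 6 to 21 counts per library and did not pass. Of the 8 genes analysed from this list of 29, 1 rose and none fell, and the median log2 fold change was 0.35.

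Lyz2 and Cd68 did not share the pattern of Csf1r, and Mrc1 had too few counts to be compared with it. Lyz2 (chromosome 10, bases 117277541 to 117282272) was at 56.4, 35.4 and 62.3 normalized counts in shControl and at 51.6, 54.2, 19.0 and 42.7 in shBrca2, a log2 fold change of -0.26 ± 0.35. As for C1qa and C1qc, shBrca2 3 was the lowest library. Its near-identical paralog Lyz1 starts 5522 bases away and was not analysed here, so the counts of Lyz2 are uncertain. Cd68 (chromosome 11, bases 69664213 to 69666170) was at 120, 88.6 and 87.6 in shControl and at 60.2, 90.3, 93.3 and 75.2 in shBrca2, a log2 fold change of -0.32 ± 0.25. Its groups overlapped, with shBrca2 1, the library highest in C1q, at the bottom. Mrc1 (chromosome 2, bases 14229414 to 14332023, a span that also holds Mir511) had 1, 1 and 4 counts in shControl and 4, 2, 2 and 7 in shBrca2, too few for the library order to be read.

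Cd68 was set beside other genes of its compartment, since lysosomes are not particular to macrophages. Of 17 lysosomal genes, none rose and 2 fell, and the median log2 fold change was -0.28, close to that of Cd68. Ctsl and Ctsh, which encode cathepsins L and H, fell by 1.27 and 0.94 on the log2 scale (DESeq2 adjusted p = 0.032 and 0.014), the first with a call lost without shControl 1, shControl 4 or shBrca2 1. Among the shBrca2 libraries Ctsh was at 2239 normalized counts in shBrca2 2 and at 945 to 1142 in the others. Lamp1, a lysosomal membrane protein related in structure to CD68, was at 2468, 2740 and 2643 normalized counts in shControl and at 1753, 2183, 1698 and 1896 in shBrca2. Its groups did not overlap, but its log2 fold change of -0.47 was within the limit of 0.5, so it was not called.

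**Figure D4:**
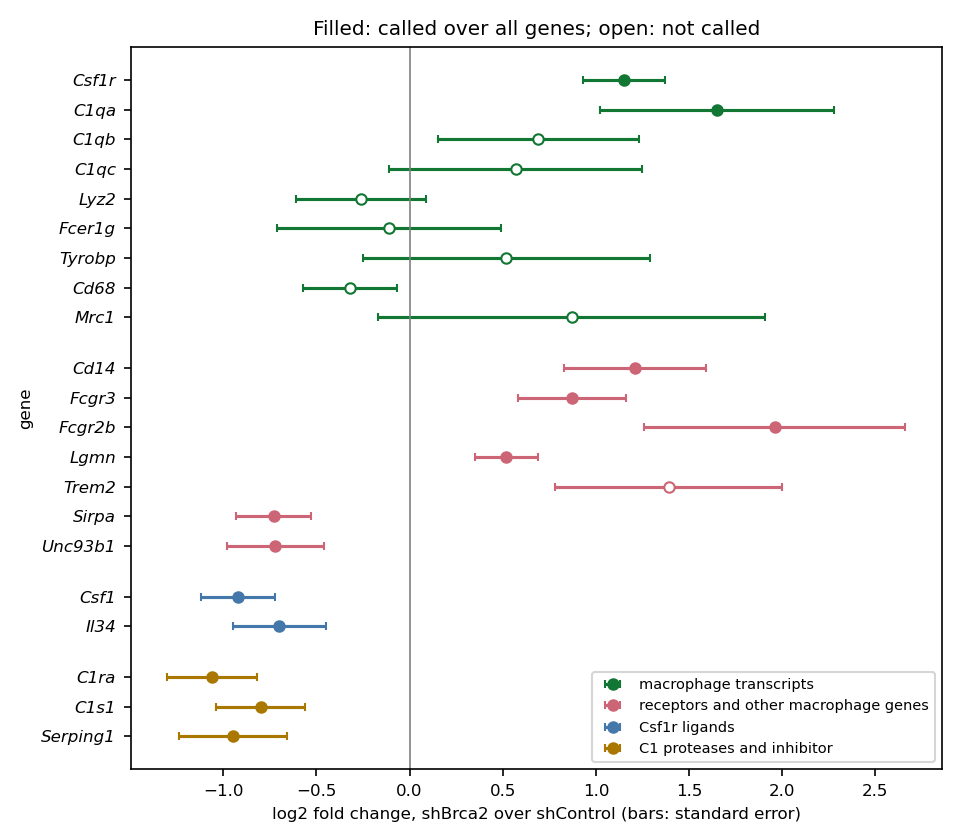
Log2 fold change of shBrca2 over shControl for the macrophage transcripts (green) and for further receptors, Csf1r ligands, C1 proteases and their inhibitor, with standard errors (n = 3 and n = 4). Filled points were called over all genes. Csf1r and C1qa are at 1.15 and 1.65, the other 7 members between -0.32 and 0.87, and the ligands and proteases between -1.06 and -0.70.

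Beyond the panel, 29 further macrophage and monocyte genes of 48 listed were analysed, of which 17 had a mean over 5. Here 4 rose and 2 fell, and the median log2 fold change was -0.08. Cd14, the lipopolysaccharide co-receptor, was at 29.9, 62.0 and 130 normalized counts in shControl and at 181, 147, 211 and 146 in shBrca2, and rose by 1.21 ± 0.38 on the log2 scale (by DESeq2, adjusted p = 0.034). Fcgr2b, the inhibitory IgG receptor, was at 1.27 to 5.84 normalized counts in shControl and at 9.33 to 15.2 in shBrca2, and rose with a log2 fold change of 1.96 ± 0.70 (adjusted p = 0.055). Lgmn, encoding the lysosomal protease legumain, rose by 0.52 (adjusted p = 0.048). With the Fcgr3 described above these are the 4 that rose. None of them was called without shControl 1. Cd14 was called in the other 6 fits that left out 1 library, Lgmn in 2 of them, Fcgr3 in 2 and Fcgr2b in 1. Sirpa, the receptor for CD47, fell by 0.73 (adjusted p = 0.0071) and kept its call without any 1 library, and Unc93b1, which carries endosomal Toll-like receptors, fell by 0.72 (adjusted p = 0.069), a call lost without shControl 1, shControl 4, shBrca2 1 or shBrca2 4.

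Some other genes of the same list were at few counts, whereas Cd14 had 35 to 252 counts per library and Trem2 41 to 485. Except for Lst1, the genes named next were picked after their values were seen and do not stand for the list. Mpeg1, encoding perforin-2, had 2 to 4 counts in shControl and 0 to 7 in shBrca2, and Aif1, encoding IBA1, had 3 in each shControl library and 0 to 10 in shBrca2. Clec7a, encoding the beta-glucan receptor dectin-1, had 1, 0 and 0 counts in shControl and 8, 10, 4 and 8 in shBrca2, and its mean stayed under 5, which kept it from being called. It was thus detected in all 4 shBrca2 libraries and in 1 of 3 shControl libraries. Ly6c2, a surface marker of monocytes, lay in the opposite direction, with 12, 4 and 15 counts in shControl and 2, 5, 0 and 0 in shBrca2, and was kept from being called by the same limit. Lst1, a leukocyte membrane protein, was at 49.6 to 58.2 normalized counts in shControl and at 35.3 to 71.1 in shBrca2.

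Genes shared by leukocytes moved in both directions. Of the 13 analysed from a list of 24, 1 rose and 1 fell, with a median log2 fold change of 0.01 and summed levels of 426 to 585 normalized counts in shControl and 542 to 685 in shBrca2. Arhgdib, a gene highly expressed in leukocytes, was at 83.7, 161 and 259 in shControl and at 488, 470, 428 and 537 in shBrca2, and rose by 1.52 on the log2 scale (by DESeq2, adjusted p = 1.1e-04). Srgn, encoding the granule proteoglycan serglycin, was at 388, 196 and 236 and at 82.6, 138, 55.3 and 70.1, and fell by 1.64 (adjusted p = 4.4e-05). Both calls held without any 1 library. Coro1a, an actin regulator of leukocytes, Laptm5, a lysosomal protein of leukocytes, and Cd52, a surface glycoprotein of lymphocytes and monocytes, had 3 to 16, 0 to 14 and 2 to 19 counts, with overlapping groups. In shBrca2 3, the library with the lowest C1q counts, Laptm5, Cd52 and Srgn were at their lowest normalized counts (0, 3.45 and 55.3). Other genes of the list were not. Coro1a was at 5.18 there and lowest in shControl 2 (3.80), and Ptpn6 and Ptpn18 were at 12.1 and 13.8 in shBrca2 3, above their lowest libraries.

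Among genes tied to particular macrophage states, 14 of 15 lipid-associated genes were analysed, and 3 rose and 2 fell, with a median log2 fold change of 0.09. Arg1, encoding arginase 1, was at 27.3, 75.9 and 16.5 normalized counts in shControl and at 143, 128, 140 and 87.4 in shBrca2, and rose by 1.67 on the log2 scale (by DESeq2, adjusted p = 0.0029). Vegfa, the endothelial growth factor, and Hmox1, encoding heme oxygenase 1, rose by 0.89 and 0.90, and all 3 calls held without any 1 library. Apoe, encoding a lipid carrier, and Ctsb, encoding cathepsin B, fell by 0.93 and 0.64. The Apoe and Ctsb calls were lost without shControl 1, shControl 4, shBrca2 1 or shBrca2 4. Spp1, encoding osteopontin, had a log2 fold change of 0.83 and did not pass (adjusted p = 0.11), but was called higher with total count scaling. Many of these genes are also made by fibroblasts and tumor cells. Of 18 tissue-resident macrophage genes 5 were analysed, and Gas6, a ligand of the TAM receptors, fell by 1.02 while none rose (median log2 fold change 0.16). Stab1, a scavenger receptor, and Pf4, a chemokine of platelets and some macrophages, had overlapping groups, at 15.6 to 50.6 and 3.89 to 21.3 normalized counts.

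Fibroblasts also make factors that attract or restrain macrophages. Of 11 such genes, 2 rose and 4 fell, with a median log2 fold change of -0.38. Ccl11, encoding eotaxin, fell by 1.43, Cxcl12 by 0.88, Ccl7 by 0.85 and Cx3cl1, encoding fractalkine, by 0.76 on the log2 scale (DESeq2 adjusted p = 4.3e-04, 0.015, 0.061 and 0.0093). Ccl2, the main monocyte attractant, was at 1754, 1546 and 1711 normalized counts in shControl and at 780, 2199, 1249 and 1056 in shBrca2 and did not pass (adjusted p = 0.63). Mif, a cytokine that retards macrophage migration, and Sema3a, a guidance factor, rose by 0.91 and 2.34. The Ccl7 call was lost with edgeR and without shControl 1, shControl 4, shBrca2 1, shBrca2 3 or shBrca2 4. The Cxcl12 call was lost without shControl 1, that of Cx3cl1 without shControl 4 and that of Mif without either of these libraries. The Sema3a call was lost without shControl 1, shControl 4, shBrca2 1 or shBrca2 4.

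Markers of other cells were examined in the same libraries. Keratins and Cldn3 of the epithelial list rose beside Csf1r: of 10 listed genes, 7 were analysed and 5 of them rose. The list summed to 390 to 1195 normalized counts in shControl and 1553 to 2124 in shBrca2, with a median log2 fold change of 1.18. Cdh1 and Cldn7 had only 1 to 17 and 0 to 9 counts and were not called, and Epcam, Cldn4 and Esrp1 were not analysed here. Krt8, a keratin of simple epithelia, was at 84.6, 152 and 168 in shControl and at 462, 362, 351 and 428 in shBrca2, and rose by 1.58 on the log2 scale (adjusted p of DESeq2 1.7e-07). Krt18, its partner keratin, rose by 1.18, Krt7 by 1.16 and Cldn3, a tight junction protein, by 2.17 on the log2 scale, and Krt19 rose from a mean of 296 to 592 normalized counts. The calls of Krt8 and Krt18 held without any 1 library. That of Krt7 was lost without shControl 1 or shBrca2 1, while Krt19 and Cldn3 were called in only 2 of the 7 such fits each. Which cells the keratin and Cldn3 RNA came from was not tested, nor was the part of such cells in the Csf1r difference. Mesothelial genes (8 analysed of 10, median log2 fold change 0.48) had no call by DESeq2 or edgeR and 1 unadjusted p under 0.05, and Msln, encoding mesothelin, was at 96.5 to 519 and 558 to 665 normalized counts.

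Genes of other blood cells were examined as well. None of the 9 neutrophil genes analysed of 16 was called by DESeq2 or edgeR, with 2 unadjusted p under 0.05 and a median log2 fold change of 2.19. DESeq2 gave no p for S100a9 and Ngp, so it could not call them. S100a8 and S100a9, which encode calprotectin, and the granule genes Ngp and Camp had 37, 94, 59 and 27 counts in shBrca2 2 and at most 6 in any other library, whereas the C1q chains were highest in CPM in shBrca2 1. These neutrophil and C1q transcripts thus peaked in different libraries. Of the 4 mast cell genes analysed of 10, Hdc, encoding histidine decarboxylase, was at 58.1, 158 and 232 normalized counts in shControl and at 485, 353, 530 and 407 in shBrca2, and rose by 1.57 on the log2 scale. The median of this list, 1.93, rests on the proteases Tpsb2 and Cma1, which had 7 and 8 counts in shBrca2 1 and at most 1 in any other library. None of the 3 T and NK cell genes analysed of 20 and none of the 4 dendritic cell genes of 14 was called by DESeq2 or edgeR or had an unadjusted p under 0.05, and their median log2 fold changes were 0.13 and 0.32. Cd2, an adhesion molecule of T cells, was at 4.30 to 21.4 normalized counts and Zbtb46, a transcription factor of dendritic cells, at 6.33 to 24.2. Of the 4 B and plasma cell genes analysed of 14, 2 fell and none rose (median log2 fold change -2.46), with summed levels of 39.2 to 108 normalized counts in shControl and 12.2 to 24.5 in shBrca2. Jchain, the joining chain of polymeric antibodies, was at 30.8, 11.4 and 57.4 in shControl and at 6.02, 4.08, 0 and 1.02 in shBrca2. Jchain fell by 3.41 on the log2 scale, and Mzb1, a plasma cell chaperone, fell by 2.98 (DESeq2 adjusted p = 4.8e-05 and 0.0089), the second with a call lost without shControl 4.

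Of 8 endothelial genes analysed of 14, Eng, encoding endoglin, fell by 1.46 on the log2 scale and none rose (median -0.04), and summed levels were 1258 to 1809 normalized counts in shControl and 670 to 830 in shBrca2. Eng made up most of these sums, at 972 to 1613 and 401 to 602, and 4 of the 8 genes had a log2 fold change above 0. Pecam1, encoding the gate antigen CD31, had 2 to 14 counts in shControl and 0 to 2 in shBrca2. None of 3 lymphatic genes of 8 was called by DESeq2 or edgeR or had an unadjusted p under 0.05 (median -0.42), and Flt4, a receptor for VEGF-C, was at 5.98 to 31.1 normalized counts. Of 14 fibroblast genes, Dcn, Lum and Dpt, which encode matrix components, fell by 0.77, 1.18 and 1.73 on the log2 scale, and none rose (median -0.13). The Lum call was lost without shControl 1, and that of Dcn without shControl 1, shControl 4, shBrca2 1 or shBrca2 4. Pdgfra, the alpha receptor for platelet-derived growth factor, was at 549 to 688 normalized counts in both groups, and Pdpn had a log2 fold change of -0.25. Neither Pdgfra nor Pdpn passed the test. The parts of plasma cell, endothelial and neutrophil RNA in the macrophage values were not tested.

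The genes whose pattern over the 7 libraries was most like the panel were sought among 9059 genes with a mean normalized count over 20, by the root mean square difference of centred log2 values from the mean pattern of Csf1r, Lyz2 and Cd68, the members above that level. The closest were Smc3, Ttpal, Akr1a1, Atp6v1h, Fnta, Snx3, Slc25a3, Mff, Tfg and Psmc2, at differences of 0.04 to 0.07, and none of them was called. The mean pattern was nearly flat, with a root mean square of 0.15, as it averages genes with log2 fold changes of 1.15, -0.26 and -0.32. A search with Csf1r alone, added after its values were seen, gave Fam162a, Cryaa, Cblb, Timp3, Slc2a1, Tcim, Myo1e, Plaur, Hs3st1 and Fabp3, at differences of 0.12 to 0.20 against a spread of 0.62 for Csf1r itself. The members were left out of both searches before ranking, so their absence says nothing. No gene of the other macrophage lists was among these 10. With only 10 of 9059 genes kept, this was likely for any short list, so nothing is read from it. Fam162a, the closest, was at 380, 693 and 406 normalized counts in shControl and at 931, 958, 1226 and 982 in shBrca2. As for Csf1r, shControl 2 was the highest shControl library and shBrca2 3 the highest shBrca2 library, a likeness for which Fam162a was picked.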

How the data were processed

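Sorted CD45-/CD31-/EpCAM-/PDPN+ cells of 7 tumors (3 shControl, 4 shBrca2, 1 mouse each) were profiled with a 3′ method derived from MARS-seq. The authors deposited raw counts per gene, and the submitters' processing notes name bcl2fastq, cutadapt, STAR 2.4.2a, HTSeq, DESeq2 and mm10. The annotation, the strand setting and the collapsing of molecular identifiers are not given in the sources used here. The deposited counts were fitted over all 12771 genes with DESeq2 1.42.0 in R 4.3.3 by a likelihood ratio test of the group, as the study's methods state, with median-of-ratios size factors and Benjamini-Hochberg adjustment. Calls needed adjusted p under 0.1, absolute log2 fold change over 0.5 and a mean normalized count over 5. Alternatives were the Wald test, edgeR 4.0.16 quasi-likelihood with and without a filter, TMM and total count scaling, a stricter threshold, the replicate number as a block, CPM in place of normalized counts, and leaving out each library. The fit was tested on simulated data, where the share of false calls was above the adjusted p threshold.

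The members and all gene lists were chosen with earlier results of these data known. Named were all members, the gate genes, of each list up to 6 called genes and up to 4 more with the highest mean, and the 10 genes nearest in pattern. Spi1, Clec7a, Ly6c2, Mpeg1, Aif1, Coro1a, Laptm5, S100a8, S100a9, Ngp, Camp, Pdgfra and Pdgfrb fall outside this rule and were named after their values were seen. Shared replicate numbers did not pair the libraries: over 9062 genes the deviations of same-numbered libraries correlated at -0.091, -0.127 and -0.14. Gene places and promoter sequences are from RefSeq on GRCm38.p6, and the other members had no matching promoter entry. The p-values set the group difference against the spread between these mice. Group and injected cells coincide, so the Brca2 knockdown cannot be told apart from any other difference between the shControl and shBrca2 KPC cells.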

Additional observations from a re-analysis of the deposited data

Results flagged for a closer look

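Over 109 named genes, the highest or lowest of the 4 shBrca2 libraries was set against its nearest neighbor by Dixon's ratio at the 95% level, which chance passes in about 1 in 20 groups, and 8 genes passed. No member of the macrophage panel was among them. Il34 was highest in shBrca2 3, at 81.2 normalized counts against 60.0 in the next library, with shBrca2 3 also highest in Csf1r. Apoe was highest in the same library, at 4171 against 3482. S100a9, at 54.8 against 3.05, and Ngp, at 34.4 against 2.03, were highest in shBrca2 2. These 2 genes were named after their high values in that library were seen, so their passing is not to be set against the chance rate. Cma1 (6.88 against 0) and Tpsb2 (6.02 against 0) were highest in shBrca2 1. They fell under the naming rule, but rest on 8 and 7 counts in that library and on 0 in the other shBrca2 libraries. Ctsh (2239 against 1142) and Mzb1 (5.83 against 0.861) were highest in shBrca2 2 too. The shControl group, with 3 libraries, was not examined in this way.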

How the results depend on the processing

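Csf1r was called higher under all 13 alternatives, with log2 fold changes of 0.99 to 1.39, and C1qa under 4 of the 12 that gave it an adjusted p, with 1.22 to 1.95. Both genes were selected on this comparison and the fits reuse the same libraries. Their calls describe the dependence on processing only and are no further support for a difference. The panel's count of genes called higher was 2, and 1 with edgeR with or without the filter, with adjusted p under 0.05 and log2 fold change over 1, and with the replicate block, and ran from 1 to 2 when 1 library was left out. The sign of Fcer1g changed to 0.01 with total count scaling, to 0.27 without shControl 1, to 0.04 without shBrca2 1 and to 0.11 without shBrca2 2, and leaving out 1 library gave -0.40 to 0.27. On CPM the ratio of Csf1r means was above the 2.21 of normalized counts. Other macrophage genes called higher numbered 4, 1 at the stricter threshold and 2 with the block, and 0 to 4 when 1 library was left out. Over all genes, 481 were called higher and 673 lower. The stricter threshold gave 247 and 299, the replicate block 211 and 280, and leaving out 1 library 261 to 610 and 354 to 695. The block, whose numbers did not pair the libraries, left the pan-leukocyte count unchanged. The causes were not tested. The planned fold change of Ptprc was not computed, since the gene was not analysed here. Depth limits the C1q chains, Fcer1g, Tyrobp and Mrc1, which had 1 to 39 counts per library.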
